A study of Mus musculus with 12 samples.

Results

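Müller glia are the radial glial cells that span the retina, and 9 genes that mark them were followed here through 12 small pools of picked retinal cells: Glul, Rlbp1, Apoe, Clu, Aqp4, Car14, Vim, Dkk3 and Mfge8. The genes were chosen by name as a list of Müller glia markers and were found by symbol in a table of 54232 genes; all 9 had counts in all 12 libraries and all 9 passed the filter on low counts. The pools came from adult male wild-type mice whose optic nerve had been crushed, an injury that severs ganglion cell axons. The eye had been injected with an adeno-associated virus, AAV2, carrying either GFP, the control, or Olig1, a helix-loop-helix factor known from oligodendrocyte precursors. Collection was on day 7 or day 14 after the crush, and the 12 libraries form 4 groups of 3, 1 for each virus and day, called GFP day 7, GFP day 14, Olig1 day 7 and Olig1 day 14. All 4 groups are labelled as having carried the virus for 14 days. CD90.2 beads were used to enrich ganglion cells, and between 10 and 20 fluorescent cells were picked per pool. The sources used here name no promoter for the virus. They also do not say that replicate pools were taken from different mice, so that a p-value here compares a difference with the scatter among pools, and that scatter may be technical.

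Müller glia take up glutamate and turn it into glutamine, recycle visual pigment, move water and potassium, and clear debris. Optic nerve injury is known to make them reactive, a state in which intermediate filaments and secreted proteins rise while some homeostatic genes fall. The 9 genes cover these roles. Glul encodes glutamine synthetase and Rlbp1 the retinaldehyde-binding protein CRALBP. Aqp4 encodes the water channel of the glial endfeet and Car14 a membrane carbonic anhydrase. Apoe and Clu encode the secreted lipid carrier apolipoprotein E and the extracellular chaperone clusterin. Mfge8 encodes a secreted bridge between phosphatidylserine on dying cells and integrins on phagocytes. Dkk3 encodes a secreted member of the Dickkopf family and Vim the intermediate filament protein vimentin. Other cells also make some of them: Apoe is made by astrocytes and by macrophages, Vim by many non-neuronal cells, and Rlbp1 by the retinal pigment epithelium.

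Total counts per library ran from 12534515 to 27602459. The labels call the pools retinal ganglion cells. The summed level of 16 ganglion cell markers was 220 to 435 CPM (counts scaled to 1e6 per library) in the 6 GFP libraries, 3266 to 4974 CPM in Olig1 day 7, and 243, 281 and 3852 CPM in Olig1 day 14, where replicate 2 was the high library. Isl1, which is also on the bipolar list, made up 44.6 to 200 CPM of the sum in the GFP libraries. Slc17a6 was at no more than 0.107 CPM in those libraries, while Sncg reached 67.5 CPM. Pou4f3 was the 1 of these 16 markers at 0 in all 12 libraries, and 15 of the 16 were detected in each Olig1 day 7 library. Olig1 itself was at most 0.351 CPM in every GFP library and between 56.4 and 1029 CPM in the Olig1 libraries. Markers of microglia and macrophages (13 genes) summed to 1608 to 9980 CPM in GFP day 7 replicate 3, Olig1 day 7 replicate 3 and GFP day 14 replicates 2 and 3, and to at most 48.6 CPM in the other 8 libraries. In pools of picked cells, fewer cells of a type and less RNA per cell cannot be told apart.

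The promoters of the 2 members with the most negative fitted values at day 7, Mfge8 and Car14, and of Glul and Apoe, a member whose day 7 level was also lower with Olig1 and one whose level was not, are shown here to set side by side the start sites of genes that differed in pattern within the same libraries. Each is the 250 bases upstream of the RefSeq transcription start on GRCm38.p6, read 5′ to 3′ on the gene's own strand. For Mfge8 this is chr7:79149061-79149310 on the minus strand, for Car14 chr3:95904686-95904935 on the minus strand, for Glul chr1:153899679-153899928 on the plus strand, and for Apoe, at 1 of its 3 listed starts, chr7:19699189-19699438 on the minus strand. Capitals mark matches to the letters searched on both strands: CATATG and CAGCTG (both E-boxes, the core that basic helix-loop-helix factors bind), ACAATG (a core of Sox factors) and TAATTA (a core of homeodomain factors). The genes shown and the letters were chosen with the expression values known.
Mfge8: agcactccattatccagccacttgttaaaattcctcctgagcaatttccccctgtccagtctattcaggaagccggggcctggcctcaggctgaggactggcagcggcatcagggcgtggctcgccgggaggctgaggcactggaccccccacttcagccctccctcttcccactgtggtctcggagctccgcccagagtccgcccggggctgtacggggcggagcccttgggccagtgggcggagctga
Car14: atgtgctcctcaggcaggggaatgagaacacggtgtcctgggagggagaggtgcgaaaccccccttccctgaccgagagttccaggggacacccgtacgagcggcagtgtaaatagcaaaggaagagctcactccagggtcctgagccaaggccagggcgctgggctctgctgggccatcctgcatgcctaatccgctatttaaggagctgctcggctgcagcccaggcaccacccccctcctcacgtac
Glul: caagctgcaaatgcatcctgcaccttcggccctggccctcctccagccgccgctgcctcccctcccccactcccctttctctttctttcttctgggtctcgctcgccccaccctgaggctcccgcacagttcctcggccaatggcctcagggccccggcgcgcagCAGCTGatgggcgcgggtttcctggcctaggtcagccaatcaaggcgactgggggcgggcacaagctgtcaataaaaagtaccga
Apoe: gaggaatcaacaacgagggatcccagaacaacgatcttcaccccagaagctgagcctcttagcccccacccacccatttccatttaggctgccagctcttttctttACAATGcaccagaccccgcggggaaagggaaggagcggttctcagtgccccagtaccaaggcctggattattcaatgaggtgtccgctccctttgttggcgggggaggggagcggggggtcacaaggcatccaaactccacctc
Glul held 1 CAGCTG, starting at position -85 from the start site, and Apoe held 1 ACAATG at position -144. Neither Mfge8 nor Car14 held any of the 4, nor did the windows of Rlbp1 and Vim. Of 32851 RefSeq promoter windows of the same 250 bases, 13.00% held CAGCTG, 10.69% ACAATG, 4.84% TAATTA and 3.464% CATATG. A match describes letters and is no measured binding site. RefSeq entries were matched for 6 genes, Glul, Rlbp1, Apoe, Car14, Vim and Mfge8, and not for Clu and Dkk3. Aqp4 was not looked up.

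Levels were compared between genes per length, as CPM per kilobase of merged exons. Apoe was the highest of the 9 in every library, with 18230 to 54127 CPM per kilobase. Clu was the next in every library, with 1359 to 11703. Behind these, the means of the 4 group means were 715 for Glul, 405 for Dkk3, 251 for Rlbp1, 79.9 for Vim, 75.8 for Mfge8, 60.4 for Car14 and 34.5 for Aqp4 (all CPM per kilobase). Below Clu the order was not fixed: Glul ranked 3 to 5 among the 9, Dkk3 3 to 5 and Vim 3 to 9. Neighbouring genes below Clu had ranges over the libraries that overlapped, so their order does not exceed the spread. Among all genes by CPM, Apoe ranked 1 in 11 libraries and 2 in Olig1 day 14 replicate 3, Clu ranked 3 to 20, and Car14 ranked 177 to 5646. The 9 genes together held 4.68% to 14.6% of the counts of a library, and Apoe alone 3.90% to 11.6%.

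**Figure D1:**
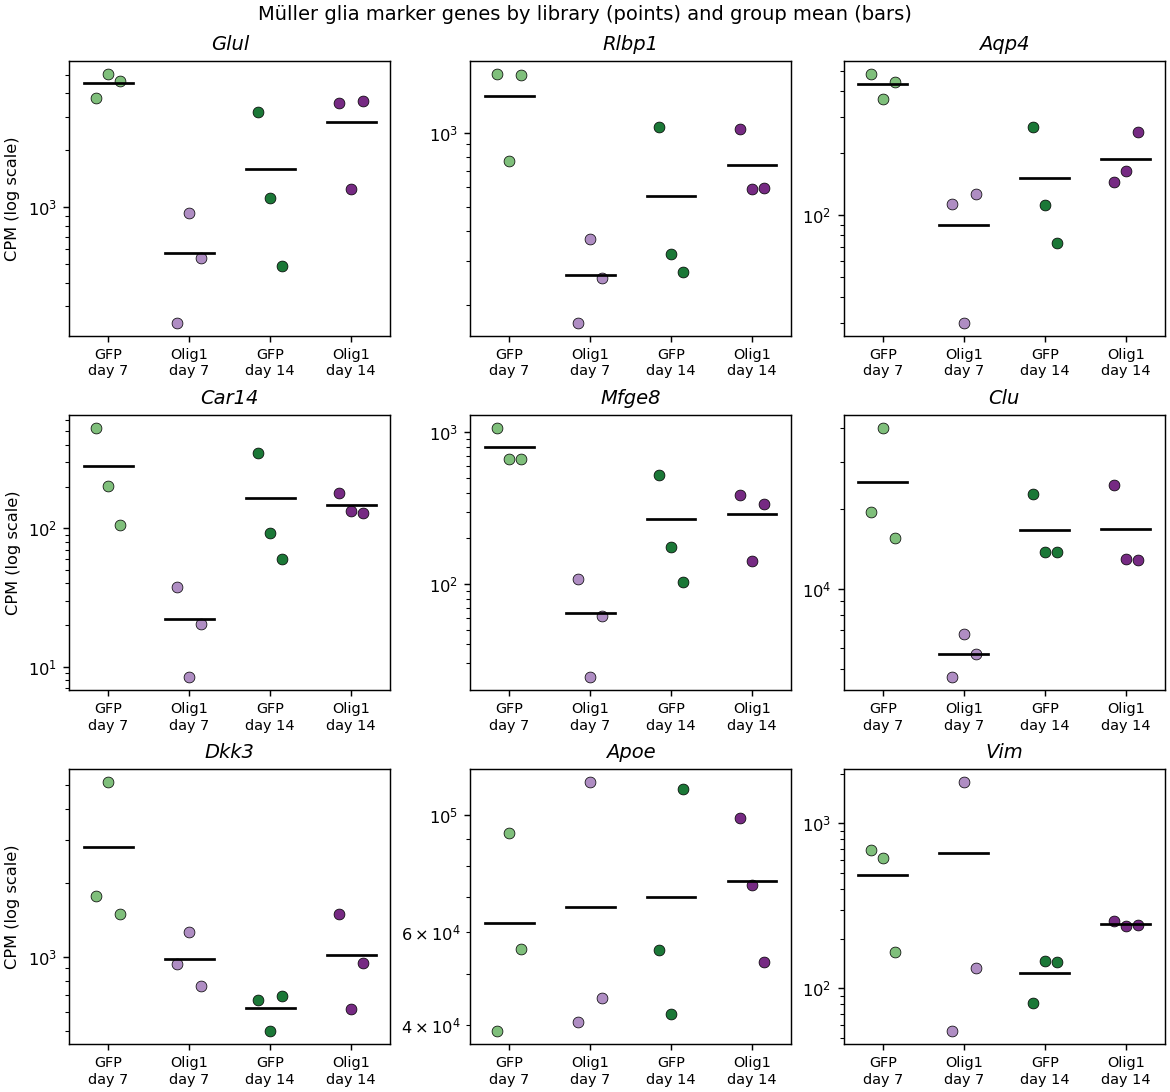
Level of each of the 9 genes in each library, in CPM on a log axis, one panel per gene, with the libraries grouped by virus and day; points are libraries and bars are group means. Mfge8, Car14, Aqp4, Glul, Rlbp1, Clu and Dkk3 have all 3 Olig1 day 7 points below all 3 GFP day 7 points, while the Apoe points of those groups overlap.

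Whether Olig1 pools carried different amounts of these transcripts from GFP pools was asked first at day 7. Mfge8, the phagocytic bridge, fell about 11.8-fold with Olig1. It was the 1 of 9 genes that passed the test over all genes, for which 0.227% of 14985 genes tested passed (34 genes). For 7 of the 9, every Olig1 library lay below every GFP library, against 9.01% of all genes. These were Glul, Rlbp1, Clu, Aqp4, Car14, Dkk3 and Mfge8, which include the genes of glutamate, retinoid, water and acid handling. Apoe and Vim overlapped between the groups. The median log2 fold change of Olig1 over GFP was -2.0 for the 9 genes and -0.03 for all genes tested, and 7 of the 9 had negative values with an unadjusted p under 0.05, against 5.00% of all genes.

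Mfge8 (ENSMUSG00000030605, chromosome 7, 79133768 to 79149060 on GRCm38) stood at 1074, 665 and 667 CPM in the GFP day 7 libraries and at 108, 24.3 and 61.4 CPM in the Olig1 day 7 libraries. The lowest GFP library was above the highest Olig1 library. Its log2 fold change was -3.57 ± 0.63 (SE; edgeR quasi-likelihood test, Benjamini-Hochberg adjusted p = 0.0298). The call rested on few libraries. Its adjusted p was 0.107 when GFP day 7 replicate 1 was left out, 0.0840 when replicate 2 was and 0.0751 when replicate 3 was. Of the Olig1 day 7 pools, leaving out replicate 2 gave 0.0826 and replicate 3 gave 0.0561, in a range of 1.65e-05 to 0.107 over all alternatives.

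Car14 (ENSMUSG00000038526, chromosome 3, 95897768 to 95904691), the carbonic anhydrase, was at 533, 201 and 105 CPM with GFP and at 37.3, 8.38 and 20.2 CPM with Olig1. The groups did not overlap, but the GFP libraries were widely spread (280 ± 225 CPM, SD, n = 3). Its log2 fold change was -3.58 ± 0.75 and it did not pass (edgeR adjusted p = 0.0766). Car14 shares 445 exon bases with Aph1a on the opposite strand, and the strand setting of the counting is not given in the sources used here. Aph1a was listed at no more than 6.83 CPM.

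Glul (ENSMUSG00000026473, chromosome 1, 153899944 to 153909723), glutamine synthetase, was at 3770, 5081 and 4666 CPM with GFP and at 245, 936 and 543 CPM with Olig1. Its GFP libraries were close together and far above the Olig1 libraries, with group means of 4505 ± 670 and 575 ± 346 CPM (SD, n = 3). The log2 fold change of -2.56 ± 0.69 did not pass (edgeR adjusted p = 0.178). Reads of Glul and of its processed pseudogene Glns-ps1 may be shared. Glns-ps1 had at most 21.6 CPM, a level that does not measure how many reads are shared. Glul also shares 116 exon bases with Teddm2 on the opposite strand, which had at most 9.41 CPM. Rlbp1 (ENSMUSG00000039194, chromosome 7, 79374870 to 79387048), the retinaldehyde carrier, was at 1740, 765 and 1720 CPM with GFP and at 168, 370 and 256 CPM with Olig1 (-2.0 ± 0.59, edgeR adjusted p = 0.203). The other 9 genes of the retinal pigment epithelium list, which Rlbp1 also marks, summed to at most 22.0 CPM in any library.

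Aqp4 (ENSMUSG00000024411, chromosome 18, 15389496 to 15410982), the water channel, was at 486, 367 and 443 CPM with GFP and at 113, 29.9 and 126 CPM with Olig1 (-2.22 ± 0.55, edgeR adjusted p = 0.121). Like Glul it varied little among the GFP libraries, with a mean of 432 ± 59.8 CPM (SD, n = 3). Clu (ENSMUSG00000022037, chromosome 14, 65968483 to 65981547), clusterin, was at 19391, 40222 and 15551 CPM with GFP and at 4671, 6754 and 5703 CPM with Olig1 (-1.89 ± 0.48, edgeR adjusted p = 0.143). Dkk3 (ENSMUSG00000030772, chromosome 7, 112116017 to 112159057) was at 1777, 5165 and 1500 CPM with GFP and at 935, 1260 and 761 CPM with Olig1 (-1.26 ± 0.59, edgeR adjusted p = 0.358). Its groups were separated by the narrowest gap of the 7, and they overlapped when levels were scaled by TMM factors in place of total counts.

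Apoe and Vim did not share the pattern. Apoe (ENSMUSG00000002985, chromosome 7, 19696109 to 19699188) was at 38975, 92593 and 55909 CPM with GFP and at 40505, 115723 and 45142 CPM with Olig1, so that each group held 1 high library, replicate 2 (0.51 ± 0.66, edgeR adjusted p = 0.818). The microglia markers summed to 4.76 and 27.2 CPM in those high libraries, and the astrocyte markers to 1911 and 841 CPM against 243 to 663 CPM in the other day 7 libraries. Of the 841 CPM in Olig1 day 7 replicate 2, Serpina3n alone gave 528 CPM, with Gfap at 0.160 and Aldh1l1 at 0.239 CPM. In GFP day 7 replicate 2, Gfap was at 40.6 and Aldh1l1 at 31.2 CPM. The part of microglia and astrocytes in the Apoe level was not tested. Vim (ENSMUSG00000026728, chromosome 2, 13573927 to 13582826), vimentin, was at 685, 613 and 165 CPM with GFP and at 54.8, 1789 and 132 CPM with Olig1 (1.11 ± 1.08, edgeR adjusted p = 0.724). One Olig1 library set the sign of both genes: without Olig1 day 7 replicate 2 the log2 fold change was -2.51 for Vim and -0.72 for Apoe.

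**Figure D2:**
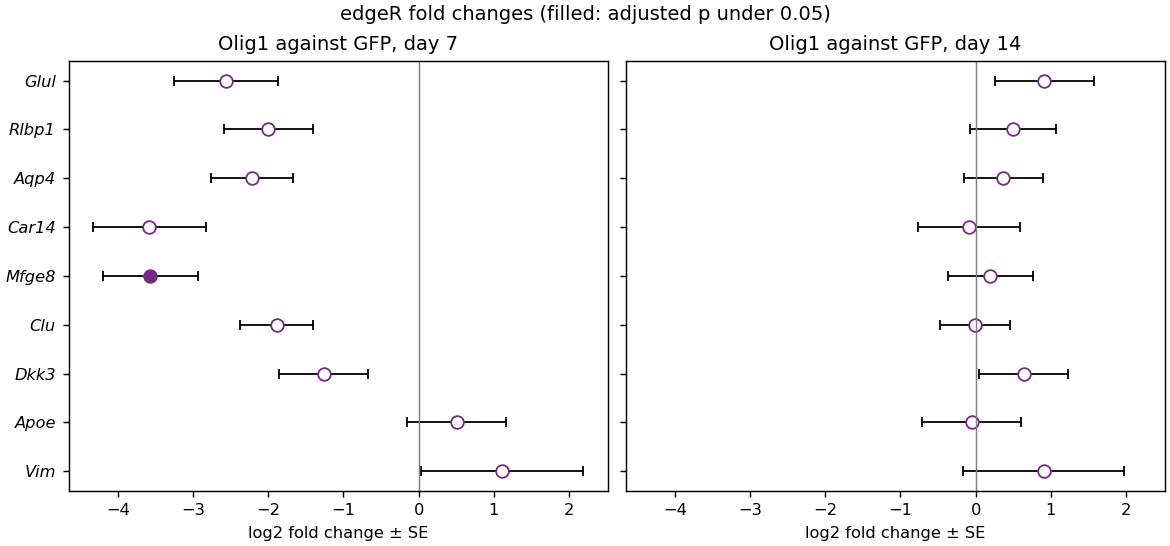
Fitted log2 fold change of Olig1 over GFP for each of the 9 genes at day 7 and at day 14; points are edgeR estimates and bars are ± 1 SE. At day 7 the values run from -3.58 (Car14) to 1.11 (Vim) and 7 are negative; at day 14 they lie between -0.08 and 0.91.

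The lower levels of the other genes beside an overlapping Apoe level can also be read as shares, which restate those values and are no further difference. Apoe made up 57.0% to 69.3% of the summed CPM of the 9 genes in GFP day 7 and 85.6% to 91.2% in Olig1 day 7 (group means 63.3 ± 6.16% and 87.8 ± 3.02%, SD, n = 3). The sum of the other 8 genes was 24816 to 53080 CPM with GFP and 6333 to 11172 CPM with Olig1. The sum of all 9 overlapped between these groups, at 68430 to 145673 and 46838 to 126895 CPM, since Apoe outweighed the rest. At day 14 Apoe made up 65.9% to 87.8% of the sum with GFP and 73.5% to 82.1% with Olig1, and these ranges overlapped. No test was made of these sums and shares, because they are scores over the chosen genes.

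**Figure D3:**
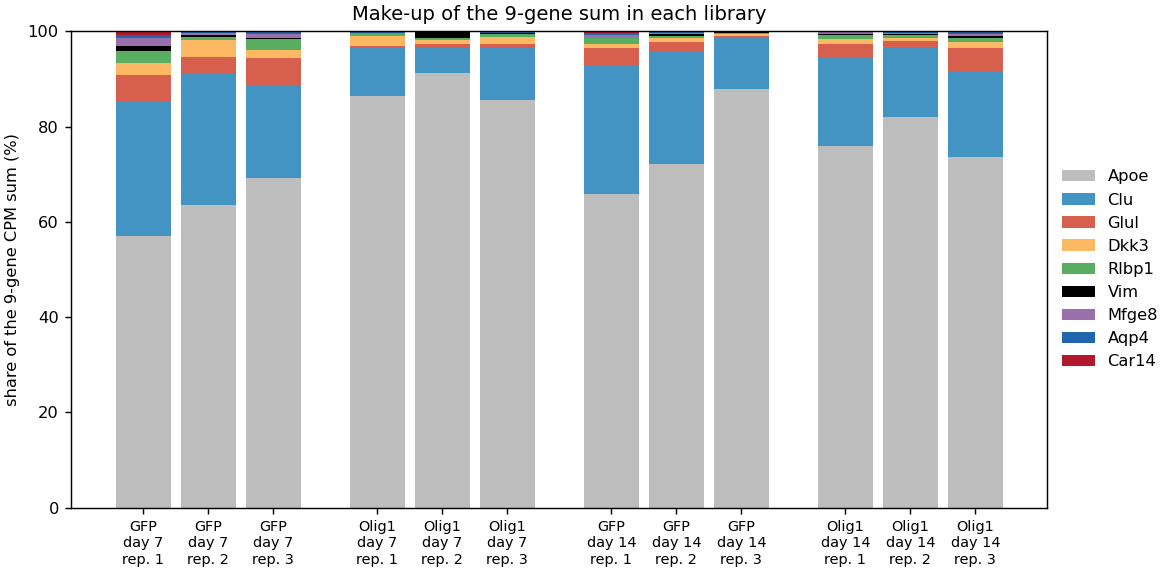
Share of each gene in the summed CPM of the 9 genes, in percent, as 1 stacked bar per library. The Apoe part fills 85.6% to 91.2% of the bar in the 3 Olig1 day 7 libraries and 57.0% to 69.3% in the 3 GFP day 7 libraries.

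A list of 25 other Müller glia genes was set beside the 9. At day 7, 24 of the 25 had negative values, against 50.7% of all genes, and the median was -1.63, against -0.03. Every Olig1 library lay below every GFP library for 15 of them, against 9.01% of all genes. Sparc, a secreted matrix protein, fell from 934, 2355 and 1070 CPM to 142, 134 and 249 CPM (-2.94 ± 0.52, edgeR adjusted p = 0.0300) and was the 1 gene of the list that passed, against 0.227% of all genes. The call was lost without GFP day 7 replicate 1, 2 or 3 (adjusted p = 0.0759, 0.146 and 0.0736 by edgeR) and without Olig1 day 7 replicate 1 or 2 (0.0722 and 0.0666). Cd9, a tetraspanin, was at 885, 1011 and 1487 CPM with GFP and at 63.9, 22.4 and 248 CPM with Olig1 (-3.35 ± 0.68, edgeR adjusted p = 0.0609). Lhx2, a homeodomain factor of Müller glia named here after its value was seen, had the 1 positive value (1.26). At day 14 the list had a median of 0.22 and 0 of 25 passed.

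Markers of other retinal cells moved with the day 7 groups. The 13 rod markers summed to 13858 to 64928 CPM with GFP and to 687 to 1441 CPM with Olig1, and the 16 ganglion cell markers to 238 to 357 and 3266 to 4974 CPM. The cone markers summed to 1414 to 1949 CPM with GFP and to 27.1 to 109 CPM with Olig1. Of the cone sum, Gnb3 alone was at 1768, 995 and 846 CPM in the GFP libraries. In GFP day 7 replicate 1, Arr3 was at 0.107 CPM and Opn1sw at 0. Every Olig1 day 7 library lay below every GFP day 7 library for 3 of the 9 cone genes, against 9.01% of all genes. The bipolar markers summed to 1144 to 2104 CPM with GFP and to 236 to 517 CPM with Olig1. The amacrine markers summed to 342 to 850 CPM with GFP and to 1726 to 3955 CPM with Olig1. By the edgeR test 2 of the 10 amacrine genes rose, and 1 of the 13 rod and 1 of the 10 bipolar genes fell. In the ganglion cell, cone and vascular lists 0 genes passed, and over all genes 0.227% did. The vascular and pericyte markers summed to 376 to 860 CPM with GFP and to 114 to 209 CPM with Olig1. In the highest of these libraries, GFP day 7 replicate 1, Vtn was at 504, Kdr at 177 and Flt1 at 151 CPM. Kdr is also on the other Müller glia list. Pecam1 was at no more than 2.95 CPM in any day 7 library, and Cldn5 and Cdh5 were at 0 there. None of these 6 sums overlapped between the day 7 groups. CPM are shares of a library, and the part of these other transcripts in the glial values was not tested. The 14 astrocyte and reactive glia markers, of which 7 to 13 were detected per library, summed to 243 to 1911 CPM with GFP and to 293 to 841 CPM with Olig1 at day 7, ranges that overlap. Their levels were uneven: in GFP day 7 replicate 2 Aldh1a1 was at 594, Lcn2 at 454, Serpina3n at 283 and S100b at 261 CPM, in Olig1 day 7 replicate 2 Serpina3n was at 528 CPM and in Olig1 day 7 replicate 1 Lcn2 was at 378 CPM. Gfap, which reactive Müller glia also make, was at 0 to 40.6 CPM over all libraries, and Pax2 was at 0 in 11 libraries and at 0.438 CPM in GFP day 7 replicate 2. The single genes named from these lists were named after their values were seen. The microglia markers were high in replicate 3 of both day 7 groups (2852 and 1608 CPM). Without the 4 libraries rich in those markers, which leaves 2 against 2 at day 7, 0 of the 9 passed the test. The log2 fold change of Mfge8 was then -3.61 (edgeR adjusted p = 0.0916), near its value with all libraries.

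**Figure D4:**
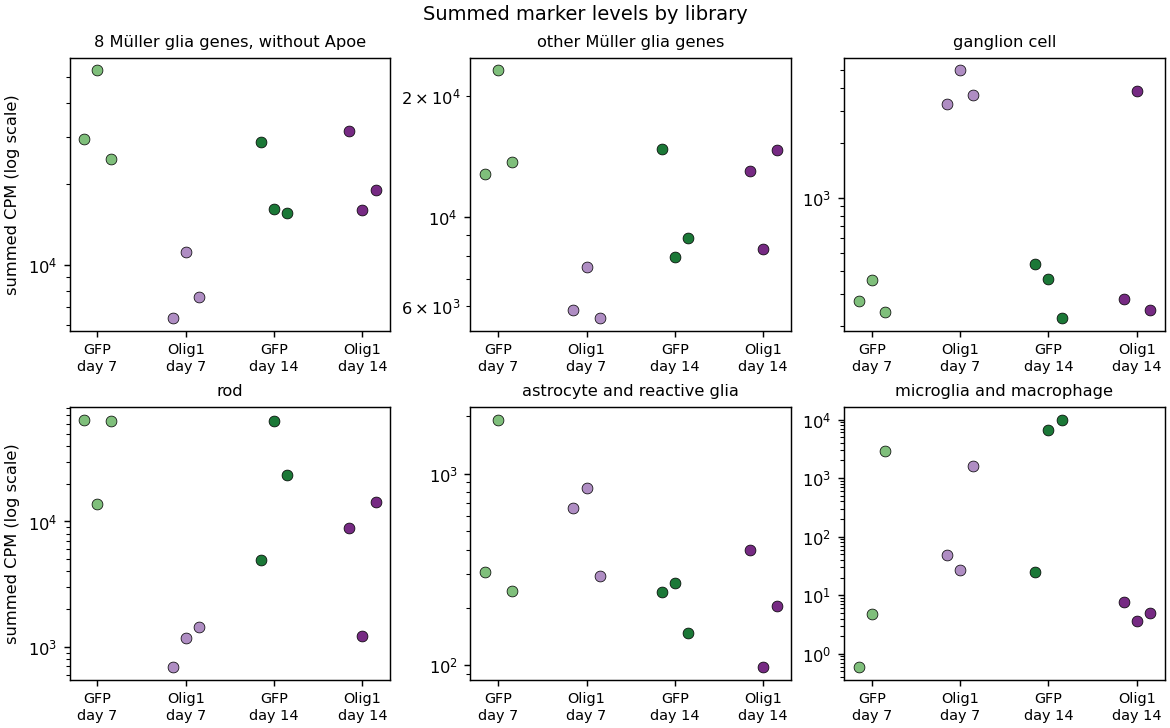
Summed CPM of the markers of each cell type in each library, on a log axis; points are libraries, grouped by virus and day. Rod markers sit lower and ganglion cell markers higher in Olig1 day 7 than in GFP day 7, and microglia markers are high in 4 libraries.

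At day 14 none of the 9 genes passed the test for Olig1 against GFP; 0.04% of all genes passed (6 genes by edgeR), and 1563 genes had an unadjusted p under 0.05. DESeq2 and limma voom called 0 of the 9 as well. Across the planned settings other than leaving out a library, the count over all genes ran from 0 to 743. The median of the 9 was 0.37 and that of all genes 0.09. Adjusted p-values ran from 0.807 to 1. For Vim, all 3 Olig1 libraries (255, 240 and 241 CPM) lay above all 3 GFP libraries (81.2, 146 and 145 CPM). This was 1 of 9 genes, against 7.78% of all genes, and its log2 fold change was 0.90 ± 1.07.

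The remaining members overlapped between the day 14 groups. Glul was at 3197, 1120 and 490 CPM with GFP and at 3547, 1247 and 3662 CPM with Olig1 (0.91 ± 0.66). Its GFP libraries fell apart: replicate 1 was the closest to the day 7 controls, and replicates 2 and 3, the libraries rich in microglia markers, were lower. Mfge8 showed the same order, at 524, 175 and 104 CPM with GFP and at 388, 143 and 338 CPM with Olig1 (0.20 ± 0.57). Rlbp1 was at 1059, 320 and 272 CPM and at 1034, 589 and 597 CPM, in the order GFP and Olig1 (0.49 ± 0.57). Aqp4 was at 269, 112 and 73.1 CPM and at 144, 164 and 252 CPM (0.37 ± 0.52). Without the 4 microglia-rich libraries, which leaves GFP day 14 with replicate 1 alone, the values of Glul, Rlbp1, Aqp4 and Mfge8 were -0.02, -0.34, -0.35 and -0.69, so the sign of these 4 genes at day 14 depended on those libraries. The lone library is assumed to vary like the other groups.

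Car14 was at 347, 92.8 and 59.6 CPM with GFP and at 178, 132 and 130 CPM with Olig1 at day 14 (-0.08 ± 0.68). Clu was at 22633, 13698 and 13734 CPM and at 24488, 12925 and 12814 CPM, near-equal sets with 1 high library each, and its sign changed between alternatives. Dkk3 was at 668, 499 and 696 CPM and at 1491, 614 and 943 CPM (0.64 ± 0.59). Apoe was at 55530, 42036 and 112128 CPM and at 98970, 73590 and 52630 CPM (-0.05 ± 0.66). With GFP, the Apoe level was highest in replicate 3, where the microglia markers summed to 9980 CPM. It was lowest in replicate 2, where those markers summed to 6751 CPM. The part of microglia in the Apoe level was not tested.

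Whether the Olig1 effect differed between the days was tested as an interaction. None of the 9 genes and 0% of all genes passed by edgeR, while 1484 genes had an unadjusted p under 0.05. DESeq2 called 527 genes, Aqp4, Car14 and Mfge8 among them, and limma voom 0. The log2 difference of day 14 minus day 7 was 3.76 ± 0.83 for Mfge8, 3.50 ± 0.99 for Car14, 3.47 ± 0.95 for Glul and 2.59 ± 0.75 for Aqp4 (edgeR adjusted p = 0.341 for each). It was 2.49 ± 0.82 for Rlbp1, 1.90 ± 0.84 for Dkk3 and 1.89 ± 0.67 for Clu (edgeR adjusted p from 0.348 to 0.474), and was -0.56 ± 0.93 for Apoe and -0.21 ± 1.50 for Vim. The 7 genes that were lower at day 7 all had positive differences. They were picked by their day 7 values, which enter the difference, so the shared sign is no further evidence. The edgeR test passed none of the 7. Over the mean of both days 0 of the 9 passed, against 0.654% of all genes (98 genes by edgeR, and 2230 at an unadjusted p under 0.05), with Mfge8 (-1.69 ± 0.41, edgeR adjusted p = 0.0786) and Car14 (-1.83 ± 0.49, 0.103) nearest to the threshold. Of the 25 other Müller glia genes Cd9 passed there (-2.19 ± 0.46, edgeR adjusted p = 0.0408), a call that was kept without Olig1 day 7 replicate 3 or Olig1 day 14 replicate 3 and lost without any 1 of the other 10 libraries (0.0572 to 0.123).

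Time after the crush was compared within each virus, with the same libraries that entered the comparisons above. Among GFP pools, 8 of the 9 genes had lower fitted values at day 14 than at day 7, with a median of -1.28 against -0.14 for all genes. None of the 9 passed, nor did any gene of the table (0% by edgeR, with 1540 genes at an unadjusted p under 0.05; 646 genes by DESeq2 and 17 by limma voom). Every day 14 library lay below every day 7 library for Glul, Aqp4, Vim, Dkk3 and Mfge8, which is 5 of 9 against 10.5% of all genes. The fitted value was -1.91 ± 0.61 for Dkk3, -1.63 ± 1.09 for Vim, -1.37 ± 0.58 for Mfge8, -1.33 ± 0.67 for Glul and -1.28 ± 0.53 for Aqp4 (edgeR adjusted p from 0.442 to 0.724). Scaling by total counts moved the median of all genes to -0.46 in this comparison, so values here are to be read relative to that of all genes.

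Among Olig1 pools, 6 of the 9 genes, Glul, Rlbp1, Clu, Aqp4, Car14 and Mfge8, were higher in every day 14 library than in every day 7 library, against 5.55% of all genes. None passed the test, against 0.0334% of all genes (5 genes by edgeR), and 1766 genes had an unadjusted p under 0.05. The fitted day difference was 2.98 ± 0.73 for Car14, 2.39 ± 0.60 for Mfge8 and 2.14 ± 0.68 for Glul, then 1.53 ± 0.48 for Clu, 1.40 ± 0.58 for Rlbp1 and 1.31 ± 0.53 for Aqp4 (edgeR adjusted p from 0.322 to 0.397). Apoe and Dkk3 both stood at -0.01 and Vim at -1.84 ± 1.10. In Olig1 day 14 replicate 2 the ganglion cell markers summed to 3852 CPM, within the range of Olig1 day 7. Sncg alone gave 2261 CPM of that sum. Stmn2 (223 CPM), Thy1 (28.1 CPM) and Slc17a6 (25.7 CPM) lay below every Olig1 day 7 library. Gap43 (410 CPM) and Tubb3 (503 CPM) lay within the Olig1 day 7 range, and Nefh (75.5 CPM) above it. Replicate 2 held 1247 CPM of Glul, 589 CPM of Rlbp1 and 143 CPM of Mfge8, the lowest of its group for each. Aqp4 was lowest in replicate 1 (144 CPM), and Clu and Car14 were lowest in replicate 3 (12814 and 130 CPM). These lowest values of the 6 genes were all above every Olig1 day 7 library.

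The genes varied together to unequal degrees across the 12 libraries. Against the mean of the 9 scaled log2(CPM + 1) values, Pearson's r was 0.932 for Glul, 0.902 for Clu, 0.890 for Rlbp1, 0.844 for Mfge8, 0.771 for Car14, 0.729 for Aqp4 and 0.699 for Dkk3, and 0.414 for Vim and 0.178 for Apoe. Each gene is part of that mean. Between members, r was 0.928 for Aqp4 and Mfge8, 0.923 for Car14 and Mfge8 and 0.909 for Glul and Rlbp1, and 0.0680 for Apoe and Glul. Outside the 9, the genes closest to the mean were Glns-ps1 (r = 0.900, rho = 0.832), Slc1a3, the glial glutamate transporter GLAST (0.877, 0.818), Sparc (0.877, 0.839), Fxyd1, a regulator of the sodium pump (0.876, 0.867), and the stress-responsive kinase gene Sgk1 (0.866, 0.874). These correlations are descriptions over n = 12 libraries that share group and library composition, and the reads of Glns-ps1 and Glul cannot be parted with certainty.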

How the data were processed

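Polyadenylated RNA of 12 pools was measured, 3 per group, after amplification over 20 PCR cycles (SMART-Seq HT), per the labels' protocols. The deposited values are raw counts of reads per Ensembl gene, made by the authors on mm10 with FastQC, HISAT2 and HTSeq, per the submitters' processing notes. The annotation and whether strand was used are not given there. PCR reads carry no molecular identifiers. The labels speak of batches of libraries without tying a library to one, so batch did not enter a test and cannot be told apart from the groups. Symbols came from GENCODE M21 (54165 of 54232 IDs matched). CPM used total counts, and a count of 0 allows up to 0.109 to 0.239 CPM, which covers counting error only. Differences in counts were fitted by edgeR 4.0.16 (robust quasi-likelihood, TMM, filterByExpr with a minimum count of 10, which left 14985 genes) in R 4.3.3, in 1 fit of all 12 libraries on 4 groups with no covariate, and called at a Benjamini-Hochberg adjusted p of 0.05. The fit was tested on simulated data at the estimated spread, where it missed many of the known differences, and at a lowered one. Alternatives were other scalings, DESeq2 1.42.0, limma 3.58.1 voom, other filters, fewer groups, a replicate block and each library left out. Tables were handled in pandas 2.3.3 under Python 3.11.15 and plotted with matplotlib 3.10.9.

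The 9 genes, the marker lists and the tests were chosen with earlier results of these data known. Named were the 9 genes, those of the other Müller glia list that passed in any comparison, the 2 of it with the smallest p at day 7, and the 5 genes most like the mean of the 9. Lists share some genes: Kdr marks both the other Müller glia and the vascular list, Isl1 the ganglion cell and bipolar lists, and Rlbp1 the pigment epithelium. Over the 12 libraries the marker sums ran from 27.1 to 5601 CPM (cone), 211 to 5496 CPM (bipolar), 342 to 3955 CPM (amacrine) and 84.2 to 860 CPM (vascular).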

Additional observations from a re-analysis of the deposited data

Results flagged for a closer look

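For 3 genes the libraries of the 2 viruses moved in opposite directions from day 7 to day 14: every GFP library at day 14 lay below every GFP library at day 7, and every Olig1 library at day 14 lay above every Olig1 library at day 7. The difference between these day effects, as a log2 value of the Olig1 day effect minus the GFP day effect, was 3.76 ± 0.83 (SE) for Mfge8, 3.47 ± 0.95 for Glul and 2.59 ± 0.75 for Aqp4. By the test of the difference itself, the edgeR interaction term, each had an adjusted p of 0.341 and did not pass. Over all genes, the fall with GFP taken alone held for 10.5% and the rise with Olig1 taken alone for 5.55%. How many of all genes met both was not counted, so the 3 genes are listed as a description only. No group has the 4 libraries that a check for single outlying libraries needs.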

How the results depend on the processing

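At day 7 the number of the 9 genes called was 1, and became 2 with total counts only (Clu, Mfge8) and with the replicate block (Car14, Mfge8), 3 with DESeq2 (Aqp4, Car14, Mfge8) and with no filter (Rlbp1, Car14, Mfge8), 5 with limma voom (Glul, Rlbp1, Clu, Aqp4, Mfge8), 0 with only the groups compared, 0 without the 4 libraries high in microglia markers, and 0 to 2 with 1 library left out. Over all genes the day 7 count of 34 became 954 with DESeq2, 430 with voom, 218 with no filter and 1 to 81 with 1 library left out. Across the planned settings other than leaving out a library, only the groups compared among them, it ran from 24 to 954. Of the 9, over the mean of both days 2 were called with DESeq2, 2 with no filter and 1 without the microglia-rich libraries, where the count over all genes went from 98 to 1153, 401 and 349. For the interaction 3 were called with DESeq2 and 1 with no filter, where the count over all genes went from 0 to 527 and 40. For day 14 against day 7 in Olig1 2 were called with DESeq2, 2 with voom and 2 with no filter, where the count over all genes went from 5 to 626, 313 and 59. The causes of these differences were not tested.

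Replicate numbers did not pair the libraries: deviations from group means correlated at -0.070 to 0.048 for the 18 same-numbered pairs and at -0.070 to 0.079 for the others. Besides adding Car14 at day 7, the replicate block changed no call of the 9 genes, and it moved the count over all genes from 98 to 64 over the mean of both days and from 6 to 1 at day 14.

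Of 1116 gene values under alternatives, 1003 kept direction and side of the threshold, 26 were no longer called, 32 became called and 55 changed sign. At day 7 the sign changed for Apoe (-0.0504) and Vim (-0.98) with voom, and with 1 library left out Apoe ran from -0.72 to 1.06 and Vim from -2.51 to 1.67, negative without Olig1 day 7 replicate 2. At day 14 it changed with total counts for Apoe (0.10) and Clu (0.00468), with voom for Clu (0.11) and Car14 (0.68), with only the groups compared for Clu (0.00778), with the block for Car14 (0.22), and without the microglia-rich libraries for Glul (-0.0175), Rlbp1 (-0.34), Apoe (0.61), Aqp4 (-0.35) and Mfge8 (-0.69). With 1 library left out, day 14 values ran from -0.38 to 0.78 for Apoe, -0.37 to 0.18 for Clu, -0.41 to 0.84 for Car14 and -0.11 to 0.95 for Mfge8. Mfge8 turned negative without GFP day 14 replicates 2 or 3 or Olig1 day 14 replicate 1, and Car14 positive without GFP day 14 replicate 1 or Olig1 day 14 replicate 2. For the interaction, Vim was 0.55 with total counts, 1.71 with voom, 0.73 with the block and 0.58 without the microglia-rich libraries. With 1 library left out it ran from -0.77 to 3.41 for Vim and -1.11 to 0.68 for Apoe. In GFP, day 14 against day 7 changed sign without the microglia-rich libraries for Apoe (-0.25) and Car14 (0.0529), and with 1 library left out ran from -0.28 to 1.10 for Apoe, -0.64 to 0.34 for Clu and -1.45 to 0.21 for Car14. In Olig1 it changed with total counts for Apoe (0.16) and Dkk3 (0.0440), with voom for Apoe (0.67), Vim (0.76) and Dkk3 (0.27), with no filter for Apoe (0.00444) and with the block for Apoe (0.34) and Dkk3 (0.20). With 1 library left out it ran from -0.38 to 1.11 for Apoe, -0.38 to 0.56 for Dkk3 and -2.40 to 1.67 for Vim, each highest without Olig1 day 7 replicate 2. None of these values was called. Both day comparisons shift with scaling as a whole: the median of all genes was -0.14, -0.25 and -0.46 in GFP with TMM, DESeq2 size factors and total counts, and -0.01, -0.19 and -0.21 in Olig1. By CPM without length Car14 ranked 9 and Aqp4 8 among the 9. Leaving out the microglia-rich libraries and adding the Glns-ps1 counts to Glul were chosen after seeing the data. Every member had counts in every library, and the part of sequencing depth in these comparisons was not tested.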

Other observations

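The proportion of Rlbp1 to Glul, both homeostatic Müller glia genes, was not constant across pools. Per length, Rlbp1 stood at 0.169 to 0.772 of the Glul level, lowest in GFP day 7 replicate 2 and highest in Olig1 day 7 replicate 1. Within each group the libraries differed: the ratio was 0.519, 0.169 and 0.415 in GFP day 7, 0.772, 0.445 and 0.531 in Olig1 day 7, 0.373, 0.322 and 0.625 in GFP day 14, and 0.328, 0.531 and 0.183 in Olig1 day 14. The 4 groups overlapped. These are values of single libraries and were not tested.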
